A study of Homo sapiens with 28 samples.

Results

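The replication-dependent histone genes of chromosome 6 were described here through the peaks called around them. They were taken as the protein-coding genes of GENCODE release 44 whose symbol starts with H1-, H2AC, H2BC, H3C or H4C, in a window of chromosome 6 (hg38) that opens at 26 Mb and closes just past the last of them (chr6:26015032-27895891 with flanks). The rule found 53 genes of 19970 protein-coding genes on chromosomes 1 to 22 and X. They comprised 6 genes for H1, 11 for H2A, 14 for H2B, 10 for H3 and 12 for H4. Each gene was extended by 2 kb on either side, and overlapping pieces were merged into 27 histone stretches with a total length of 0.269 Mbp. Some annotated gene extents far exceed the main transcript, with 37610 bp against 460 bp at H2BC4 and 17165 bp against 542 bp at H2BC15. H2AC6, H2BC5, H2BC6, H4C8 and H2BC11 also have extents of 6899 to 14972 bp. Parts of the stretches therefore lie far from any histone transcript. The remaining 1.68 Mbp of the window is called the sequence between. The window also holds 16 other protein-coding genes.

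Replication-dependent histone genes supply the bulk of the histones that package newly copied DNA. They are short, mostly lack introns, and are transcribed in S phase in a nuclear body built around the coactivator NPAT, and their mRNAs end in a stem-loop bound by SLBP rather than in a poly(A) tail. H2A, H2B, H3 and H4 form the core of the nucleosome, and H1 binds the linker DNA between nucleosomes. Dimethylated lysine 36 of histone H3 (H3K36me2) is a mark of euchromatin that spreads over genes and intergenic sequence, and ASH1L is one of the methyltransferases known to make it.

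The data came from 2 chromatin immunoprecipitation (ChIP) experiments in U2OS, an established human osteosarcoma cell line. In wild-type U2OS cells the antibody was directed against H3K36me2, and the groups were cells without UV (2 lists of peaks) and cells taken 3 h after 20 J/m2 of UV-C (2 lists), each set against input DNA pooled over duplicates. In ASH1L-/- U2OS cells, made with CRISPR-Cas9 and grown from isolated colonies, a transfected Flag-tagged C-terminal domain of ASH1L (CTD) was precipitated with an anti-Flag antibody, without UV (3 lists) and at 3 h after the same dose (3 lists). Both CTD groups and their empty-vector controls carry the knockout, so that no CTD list speaks for cells with their own ASH1L, and genotype, antibody and control cannot be told apart between the 2 experiments. The empty-vector control was pooled at 3 h and unpooled without UV, which cannot be told apart from UV in the CTD lists. Both kinds of list come from bulk cells, in which fewer cells with a mark and less mark per cell cannot be told apart.

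Every list holds 500000 broad peaks, so that the number of peaks in a list carries no information. The width of the peaks does differ. Over the genome the H3K36me2 lists cover 458.3 and 441.1 Mbp without UV and 401.1 and 414.1 Mbp at 3 h, and the CTD lists 268.7 to 333.8 Mbp. The lower genome-wide coverage at 3 h bears on every comparison of H3K36me2 coverage between conditions, and its part in them was not tested. The lists give no read depth, and the precision of every value rests on the spread between lists. As a check of the labels, 22 to 24 of the 28 exons of ASH1L, the gene carried by the construct, lay under a peak in the CTD lists and 0 in the H3K36me2 lists. The highest fold enrichment inside ASH1L was 5.87 to 41.2 in the CTD lists, against 3.22 to 3.67 at any other place in the genome. The peaks do not show whether the H3K36me2 cells differ in ASH1L.

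The sequence before the start of these genes was searched for motifs known from histone promoters. Of the 53 genes, 48 had a promoter entry in RefSeq (GRCh38.p14), which spans 250 bases before to 50 bases after the start. The entries of H3C4 and H3C6 lay more than 50 bases from the start of the gene's own main transcript and were left out, which kept 46. A CCAAT box (CCAAT, either strand), the binding motif of the factor NF-Y, was found in 39 of the 46 promoters (84.8%), against 35.7% of all 27195 promoters of the same length. A TATA box (TATAAA, either strand) was found in 30 (65.2%, against 12%). The octamer (ATTTGCAT, either strand), a motif for OCT1, was found in 19 (41.3%, against 1.80%). None of these motifs contains another. Promoters of divergent pairs overlap and share sequence, and 12 of the 19 octamer promoters are 6 such pairs. Merging overlapping promoters left 38, of which 31 held CCAAT (81.6%), 24 TATAAA (63.2%) and 13 the octamer (34.2%), against 36.1%, 12.8% and 1.88% of all promoters merged alike. The octamer was held by 8 of 10 H2A and 11 of 14 H2B promoters, by 0 of 6 H3, 0 of 6 H1 and 0 of 10 H4 promoters, and CCAAT was held by every H1, H2A, H2B and H3 promoter kept but by 3 of 10 H4 promoters.

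Peaks of H3K36me2 reached into the promoter in every one of the 4 lists at 3 of the 46 genes, H3C3, H2AC17 and H2BC17 (6.52%, against 7.21% of all promoters in the table), and into none of the 4 at 27 (58.7%, against 71.2%). Of the CTD peaks, none reached the same promoter in all 6 lists, as was the case for all but 0.132% of the promoters in the table, and 11 promoters were touched in no list (23.9%, against 23.5%). The 250 bases before the start are printed for H3C3, for H2AC17, which shares this divergent promoter with H2BC17 on the opposite strand, and for H1-6, whose surroundings had the highest H3K36me2 coverage. Capitals mark the TATA box, the CCAAT box and the octamer on either strand.
H3C3 promoter, chr6:26045134-26045383, plus strand: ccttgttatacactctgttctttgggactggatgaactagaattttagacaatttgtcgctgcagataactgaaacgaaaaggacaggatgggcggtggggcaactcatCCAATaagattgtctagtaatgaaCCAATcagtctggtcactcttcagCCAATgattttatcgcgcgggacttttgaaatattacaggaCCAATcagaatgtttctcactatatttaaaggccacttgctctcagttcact
H2AC17 promoter, chr6:27893186-27893435, minus strand: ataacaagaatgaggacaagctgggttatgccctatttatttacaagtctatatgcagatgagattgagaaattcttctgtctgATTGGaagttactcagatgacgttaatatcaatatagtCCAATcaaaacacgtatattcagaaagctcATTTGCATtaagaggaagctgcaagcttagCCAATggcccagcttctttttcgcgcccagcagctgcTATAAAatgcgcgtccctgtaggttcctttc
H1-6 promoter, chr6:26108136-26108385, minus strand: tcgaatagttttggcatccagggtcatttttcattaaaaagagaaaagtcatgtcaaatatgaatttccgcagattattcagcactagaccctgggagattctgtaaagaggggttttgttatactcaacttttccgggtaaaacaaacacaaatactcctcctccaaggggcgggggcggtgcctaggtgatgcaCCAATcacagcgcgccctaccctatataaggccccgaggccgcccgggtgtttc

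The H3C3 sequence holds 4 CCAAT boxes and neither of the other motifs, and the H2AC17 sequence holds all 3 kinds. H1-6 codes for the testis-specific linker histone H1t, and its printed sequence has a single CCAAT box. The same stretch of sequence follows for the 3 genes whose H3K36me2 coverage was lower in both lists at 3 h than in both lists without UV, H2AC16, H2AC14 and H1-2, described with their values further on.
H2AC16 promoter, chr6:27865067-27865316, plus strand: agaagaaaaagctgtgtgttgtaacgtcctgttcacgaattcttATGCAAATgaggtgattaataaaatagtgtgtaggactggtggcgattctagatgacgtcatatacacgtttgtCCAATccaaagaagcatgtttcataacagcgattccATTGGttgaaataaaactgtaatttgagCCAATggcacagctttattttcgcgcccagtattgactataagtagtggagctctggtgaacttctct
H2AC14 promoter, chr6:27814778-27815027, minus strand: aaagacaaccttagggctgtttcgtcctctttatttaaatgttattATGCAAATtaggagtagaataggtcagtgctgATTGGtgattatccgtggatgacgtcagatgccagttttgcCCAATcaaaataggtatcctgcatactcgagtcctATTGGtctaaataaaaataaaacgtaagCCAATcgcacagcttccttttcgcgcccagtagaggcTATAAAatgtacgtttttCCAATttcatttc
H1-2 promoter, chr6:26056471-26056720, minus strand: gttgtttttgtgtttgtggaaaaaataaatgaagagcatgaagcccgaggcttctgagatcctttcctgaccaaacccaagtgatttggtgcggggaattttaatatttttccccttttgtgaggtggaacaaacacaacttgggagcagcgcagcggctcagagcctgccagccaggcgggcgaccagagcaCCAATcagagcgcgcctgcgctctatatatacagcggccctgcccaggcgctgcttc

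The 2 H2A genes carry the octamer and several CCAAT boxes, and H2AC14 has a TATA box as well, whereas H1-2 has 1 CCAAT box. No H3K36me2 peak reached the promoter of any of these genes in any list. A motif match is a description of the letters and does not show that a factor was bound.

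The first comparison asked whether peaks lay more densely at the histone genes than in the sequence between them. For H3K36me2, 43 and 38 peak centres fell in the stretches without UV, and 38 and 38 at 3 h, which is 159.8, 141.2, 141.2 and 141.2 centres per Mbp. In the sequence between the densities were 152.3, 139.8, 127.9 and 130.3 per Mbp. The stretches were above the sequence between in 4 of 4 lists, by 0.0861 ± 0.0564 on the log2 scale (mean ± SD, n = 4), with p = 0.13 in a two-sided exact sign-flip permutation test, the smallest p that 4 lists allow. The log2 difference was 0.46 with a flank of 5 kb, 0.25 with peaks of a −log10 p of at least 2 and 0.18 with overlapping peaks in place of centres. With a flank of 1 kb the log2 difference was -0.0648, of the opposite sign (exact p = 0.5). The order was also the opposite in 4 of 4 lists in both alternatives added after seeing the data. Over bases that could be mapped uniquely the log2 difference was -0.19 ± 0.0434, and against the gaps inside the gene subclusters it was -0.75 ± 0.17 (p = 0.13 each, same exact test).

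H3K36me2 peaks covered 11.9% and 10.3% of the bases of the stretches without UV and 10.5% and 10.6% at 3 h. The sequence between was covered to 9.96% and 9.89% without UV and to 7.66% and 8.47% at 3 h. The coverage of the stretches was thus higher in 4 of 4 lists, by 0.27 ± 0.17 on the log2 scale (p = 0.13, two-sided exact sign-flip permutation test). It was larger, with the same sign, at 0.66 with peaks of a −log10 p of at least 2, 1.18 with at least 3, 0.47 with replicated peaks (overlapped over at least 50% of their length by 1 peak of another list of the condition), 0.48 with a flank of 5 kb and 0.71 with the annotated main transcripts (MANE) in place of gene extents, a setting added after seeing the data. With at least 3, only 2 to 5 peak centres per list were left in the stretches. The difference also depended on what the stretches were set against. In a test with 100-base tiles of the genome, 98.1% of the stretches but 80.8% of the sequence between could be mapped uniquely, and over the mappable bases alone the log2 difference was 0.00265, with a coverage of 10.9% for both. Against the 0.120 Mbp of gaps inside the gene subclusters, which were covered to 15.2% ± 1.17 (SD, n = 4), the stretches were lower, with a log2 difference of -0.49 (p = 0.13, the same exact test).

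The CTD lists placed 49, 51 and 50 peak centres in the stretches without UV and 41, 49 and 41 at 3 h, or 152.4 to 189.6 per Mbp. They covered 9.64%, 8.59% and 11% of the bases without UV and 6.85%, 9.73% and 8.37% at 3 h. In the sequence between the CTD coverage was 10.5%, 9.59% and 9.47% without UV and 11.3%, 11.9% and 9.22% at 3 h. CTD density was higher in the stretches in the 3 lists without UV and lower in the 3 lists at 3 h. Over all 6 lists the log2 difference was -0.0103 ± 0.19 (SD, n = 6) (p = 0.938, two-sided exact sign-flip permutation test). This mean and its SD thus combine 2 conditions of opposite sign. Over mappable bases CTD density was lower in the stretches in 6 of 6 lists, with a log2 difference of -0.29 ± 0.18 (p = 0.031, same exact test, the smallest that 6 lists allow), and against the gaps inside the subclusters it was higher in 5 of 6 lists, with 0.34 ± 0.40 (p = 0.156, same exact test). CTD coverage was lower in the stretches in 5 of 6 lists, with a log2 difference of -0.20 ± 0.31 (p = 0.156, the same exact test), and -0.0972 with list 1 at 3 h left out. With a flank of 1 kb it was -0.10 (exact p = 0.53). With replicated peaks it was -0.87 and over mappable bases -0.48 (p = 0.031 for each in the same exact test), and with MANE transcripts it was 0.0626, of the opposite sign. Replicated peaks left 5 to 10 CTD peak centres per list in the stretches. Against the gaps inside the subclusters the log2 difference was 0.33, of the opposite sign (exact p = 0.313).

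**Figure D1:**
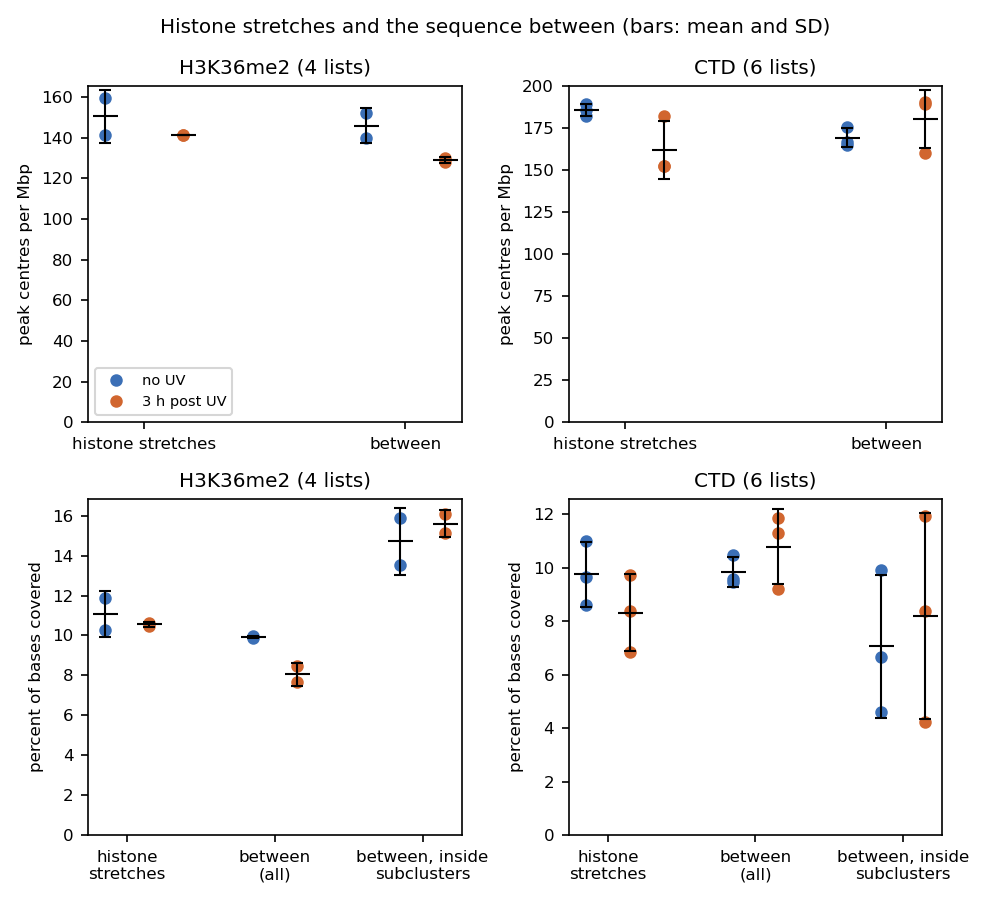
Peak centres per Mbp (top row) and percent of bases under a peak (bottom row) in the 27 histone stretches and in the sequence between them, with 1 point per list, blue without UV and orange at 3 h, and bars for the mean and SD of each condition, for H3K36me2 (4 lists) and CTD (6 lists). The bottom row adds the gaps inside the subclusters, where H3K36me2 coverage averaged 15.2% and lay above all of its lists in the stretches.

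Relative to the sequence between, CTD coverage of the stretches was lower than that of H3K36me2, with a log2 difference of -0.47 (p = 0.0238, two-sided exact permutation test of 6 lists against 4). The difference was -1.33 with replicated peaks (exact p = 0.0143), -0.70 with a flank of 5 kb (exact p = 0.0048) and -0.65 with MANE transcripts (exact p = 0.0143). Replicated peaks left 5 to 10 CTD and 17 to 21 H3K36me2 peak centres per list in the stretches. A CTD peak could match more lists, as CTD has 3 lists per condition and H3K36me2 has 2. The order turned when the gaps inside the subclusters took the place of the sequence between (log2 difference 0.82, exact p = 0.0524), and the difference was -0.34 with a flank of 1 kb (exact p = 0.119) and -0.51 without a flank (exact p = 0.124). Leaving out the H3K36me2 list 1 without UV, or either H3K36me2 list at 3 h, also took this p above 0.05, with differences of -0.56 to -0.37 over all lists left out in turn.

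The genes fall into 3 subclusters, defined by gaps of more than 200 kb. The first (chr6:26015032-26287638, 32 genes) holds most members, including all of the genes for H1 but H1-5. The second (chr6:27123897-27149562) holds only 5 genes, H2BC11, H2AC11, H4C9, H2BC12 and H2AC12. The third (chr6:27805479-27895891) holds 16 genes. Mappable bases made up 99.2%, 95.4% and 95.5% of their stretches.

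H3K36me2 was sparse in the second subcluster. Its coverage there was 3.90% and 1.88% without UV and 0% and 1.36% at 3 h, resting on at most 1 peak centre per list. In the first subcluster it was 10.5% and 9.93% without UV and 11.5% and 10.2% at 3 h, and in the third 18.9% and 14.1% without UV and 10.8% and 15.3% at 3 h. Coverage of the first subcluster was above that of the second in 4 of 4 lists, by 8.73 ± 2.09 percentage points (SD, n = 4, p = 0.13, two-sided exact sign-flip permutation test), and by 4.74 with peaks of a −log10 p of at least 2. The CTD showed the other order in 5 of 6 lists. CTD coverage of the second subcluster was 11.3%, 11.8% and 5.32% without UV and 15.1%, 15.0% and 13.5% at 3 h, against 8.26%, 5.55% and 10.3%, then 4.90%, 7.97% and 7.55%, in the first. The difference of the first from the second was -4.60 ± 5.22 percentage points (SD, n = 6, p = 0.0938, same exact test), and -0.114 with peaks of a −log10 p of at least 2 (exact p = 0.5). In the third, CTD peaks covered 13.2%, 16.6% and 15.1% without UV and 9.85%, 13.2% and 9.05% at 3 h.

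Single genes were described by the percent of the gene with 2 kb on either side that lay under a peak. H3K36me2 covered part of 27 of the 53 genes in all 4 lists, part of 18 in some lists, and no base of 8 genes in any list. Every list thus touched 50.9% of the members and none touched 15.1%, against 63.2% and 9.80% of all genes. Of the 43 members of at most 1 kb these were 55.8% and 14%, against 32.9% and 26.3% of the 471 genes of that length. The median of the member means was 11.2%, beside 6.35% over all 19970 protein-coding genes. Over the 43 members of at most 1 kb it was 16.2%, beside 6.86% over the 471 genes of that length. The CTD covered part of 10 genes in all 6 lists and of every member in at least 1 list. The share touched in every list was 18.9%, against 83.9% of all genes, of which 2.75% were touched in none. Of the short members 9.30% were touched in every list and 0% in none, against 16.6% and 13% of the short genes. The CTD coverage had a median of 11.4%, beside 15.2% over all genes, and of 11.7% over the short members, beside 9.59% over the short genes. Neighbouring members share peaks and are not independent of each other.

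H1-6 (chr6:26107412-26108135, minus strand) had the highest H3K36me2 coverage of the members. It was 56.6% and 49.6% without UV and 69.7% and 55.4% at 3 h, with a mean of 57.8% ± 8.49 (SD, n = 4), and 99.1% of protein-coding genes had a lower mean. The 2 conditions overlapped. The other H1 genes were lower, down to H1-2 at 8.38% ± 4.08.

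H3C3, for a replicative H3 (chr6:26045384-26045869, plus strand), had 50% and 47.9% without UV and 35.9% and 66.8% at 3 h. Its divergent neighbour H2BC3, for an H2B (chr6:26043227-26043713, minus strand), shares the stretch and had 56.9% and 35.7% without UV and 32% and 62.9% at 3 h. For both genes the lists at 3 h enclosed those without UV.

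At the far end of the third subcluster, the divergent pair H2AC17 (chr6:27892699-27893185) and H2BC17 (chr6:27893425-27893891) had coverages of 63.5% and 39.0%, and of 58.8% and 39.1%, without UV. At 3 h they had 27.7% and 49.2%, and 27.8% and 44.7%. H4C13, for H4 (chr6:27873148-27873534), had 47.9% and 31.0% without UV and 27.2% and 43.7% at 3 h. In these 3 genes 1 of the lists at 3 h lay between the lists without UV, so the conditions overlapped.

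The 8 genes without any H3K36me2 peak were H3C2, H2AC6, H2BC5, H4C4, H3C4, H2AC11, H4C9 and H2BC12. They cover the H2A, H2B, H3 and H4 families, and 3 of them lie in the second subcluster. Of their extended sequence 89.3% (H4C9) to 100% (H3C2, H4C4 and H3C4) could be mapped, and of the H2BC12 transcript 28.3%. The same genes had CTD peaks, with means from 1.82% for H3C2 to 21.4% for H2BC12, the highest CTD mean of all members.

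The genes with the highest mean CTD coverage were not high in every CTD list. H2BC12 (chr6:27146361-27146855) had 10.4%, 47.1% and 11.6% without UV and 11.6%, 36.3% and 11.6% at 3 h, with only 28.3% of its transcript mappable. H2AC17 had 28.4%, 15.3% and 36.2% without UV and 0%, 40.7% and 0% at 3 h. H2AC15, for an H2A (chr6:27837880-27838375), had 28.9%, 21.7% and 43.8% without UV and 0.534%, 22.5% and 0% at 3 h. In each of these genes the conditions overlapped. H3C12, H2BC17 and H4C13 followed, with means of 19.3%, 18.5% and 17.4% and SDs of 15.1, 17.2 and 9.59 (n = 6).

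Over the 27 stretches, the coverage in lists of the same H3K36me2 condition had a Spearman rho of 0.613 and 0.737, and lists of different conditions had 0.755 to 0.832. The same rho among CTD lists of 1 condition ran from -0.177 to 0.277, with a median of 0.0416. These values describe the lists, are taken across stretches that share the genome's base composition and mappability, and carry no test. Mean coverage of a stretch had a rho of 0.637 with its GC content for H3K36me2 and 0.379 for the CTD, and the means of the 2 experiments had 0.237 with each other. The part of base composition in these values was not tested.

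**Figure D2:**
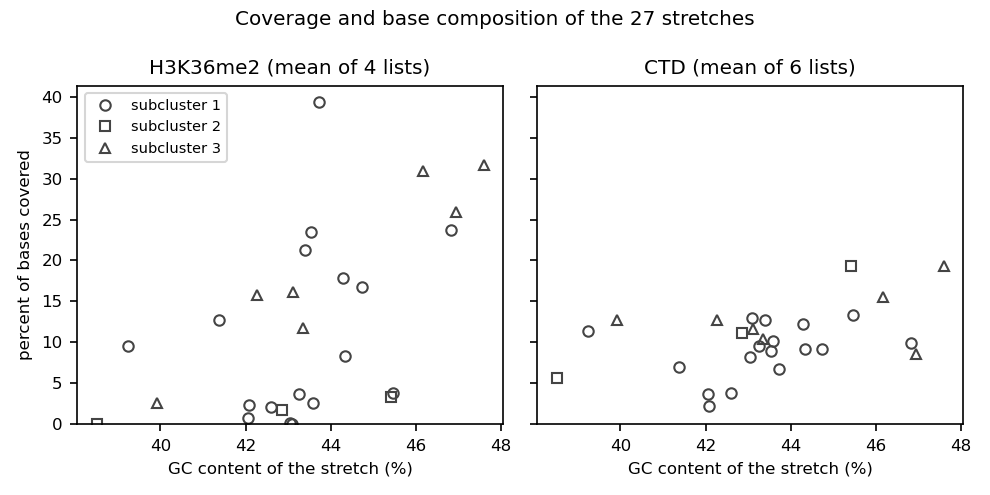
Mean percent of bases under a peak in each of the 27 stretches against its GC content in percent, for H3K36me2 (mean of 4 lists) and CTD (mean of 6 lists), with 1 symbol per stretch and a symbol shape for each subcluster. H3K36me2 coverage is higher in stretches of higher GC content (rho 0.637), and the relation is looser for the CTD (rho 0.379).

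Within the genes, H3K36me2 peaks lay more often on the transcript itself than on the sequence around it. The annotated main transcript (MANE Select) was covered to 32.9% and 25.4% without UV and to 21.7% and 25.5% at 3 h, a mean of 26.4% ± 4.71 (SD, n = 4). The windows from 2000 to 500 bases before the start had 14.2% to 20.3%, the 500 bases before the start 13% ± 1.94, the 500 bases after the end 15.1% ± 1.00 and the next 500 bases 7.11% ± 3.32. In every list the transcript stood above each of these windows. The transcripts have a GC content of 56.7%, against 41.6% to 45.3% in the flanking windows, and 91.7% of their bases are mappable. For the CTD the transcripts were covered to 15.7% ± 4.48 (SD, n = 6), against 6.68% to 14.5% in the flanking windows.

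Among the families, H3 transcripts had the highest H3K36me2 coverage at 47.6% ± 4.78 (SD, n = 4), followed by H1 at 35.4% ± 9.18 and H2B at 26.3% ± 5.99. H4 transcripts had 12.6% ± 5.92 and H2A transcripts 11.5% ± 10.6. The lists of H3 (44.4% to 54.7%) lay above all lists of H2B (18.1% to 32.4%), H4 (8.10% to 20.6%) and H2A (1.45% to 25.7%), whereas H1 (29.6% to 49.0%) overlapped with H3, and each of the later neighbours in this order overlapped with the next. All bases of the H3 and H1 transcripts are mappable, against 90.0% for H2A, 85.4% for H2B and 86.1% for H4, and the part of mappability in this order was not tested. By condition, the means without UV and at 3 h were 45.7% and 49.6% for H3, 40.9% and 29.9% for H1, 27.5% and 25.2% for H2B, 14.3% and 10.9% for H4, and 19.3% and 3.65% for H2A. Over the genes with their flanks the first 2 changed places, with H1 at 23.8% ± 6.10 and H3 at 20.1% ± 2.62, above H2B at 11.1% ± 0.268, H4 at 9.96% ± 0.934 and H2A at 9.77% ± 3.40. In the CTD lists the transcripts of the families ranged from 10.0% ± 6.03 for H2B to 22.9% ± 8.86 for H3, and the ranges of all 5 families overlapped.

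A peak touched the transcript in all 4 H3K36me2 lists at 8 genes, H3C3, H1-6, H4C7, H2BC10, H3C10, H3C11, H2AC17 and H2BC17 (15.1%), and in no list at 29 (54.7%). All member transcripts are at most 1 kb long. Of the 440 main transcripts of that length among all genes, which have a median length of 840 bp against 486 bp for the members, 20.5% were touched in every list and 43.6% in none. No member transcript was touched in all 6 CTD lists, and 7 were touched in none (13.2%), against 0.682% and 23.4% of the 440. In all, 7534 bp of the stretches (2.80%) lay under a peak in every H3K36me2 list, against 1.60% of the sequence between, in 17 segments of up to 1241 bp. No base of the stretches lay under a peak in more than 4 of the 6 CTD lists.

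The longest of these segments, chr6:27893107-27894347, spans the promoter shared by H2AC17 and H2BC17 printed above and the start of both genes. Another, chr6:26045254-26046102, runs from the H3C3 promoter over the whole transcript, and chr6:26106967-26108025 spans most of H1-6. The segment at H4C7, for an H4 protein, lies wholly in coding sequence (58.1% GC) and is printed as an example of a coding part of a core histone gene under a peak in every H3K36me2 list. Capitals mark coding bases, here the entire run.
H4C7 coding, chr6:26246685-26246932, minus strand: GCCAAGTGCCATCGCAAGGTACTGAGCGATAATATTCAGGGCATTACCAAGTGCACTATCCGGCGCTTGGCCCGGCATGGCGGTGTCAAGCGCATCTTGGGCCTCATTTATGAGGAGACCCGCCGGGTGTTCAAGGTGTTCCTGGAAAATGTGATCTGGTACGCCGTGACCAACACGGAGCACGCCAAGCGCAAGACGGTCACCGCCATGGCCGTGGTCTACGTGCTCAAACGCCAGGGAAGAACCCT

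H3K36me2 peaks covered a mean of 11.1% ± 1.16 of the stretches without UV, compared with 10.6% ± 0.129 at 3 h (SD, n = 2 each), a log2 ratio of -0.07, and the density had a log2 ratio of -0.09 (both p = 1, two-sided exact permutation test). The lists overlapped, and 2 lists against 2 cannot give a p below 0.33. With peaks of a −log10 p of at least 3 the coverage ratio was -1.27 (exact p = 0.33). That value rests on 5 and 4 peak centres without UV and 2 and 2 at 3 h. The ratios of -0.07 and -0.09 both rest on single lists. With list 1 without UV left out they were 0.0413 for coverage and 0 for density, and with list 2 without UV left out they were -0.17 and -0.18. Over the same lists the sequence between went from 9.93% ± 0.0534 to 8.06% ± 0.574. The difference of the log2 changes, stretches minus the sequence between, was 0.24 for coverage and 0.09 for density (p = 0.33 for each in the same exact test). The value for coverage was 0.13 with list 2 without UV left out, 0.45 with replicated peaks and 0.12 with MANE transcripts. Against the gaps inside the subclusters the coverage and density values both had the opposite sign, -0.15 and -0.18. So had the coverage value with peaks of a −log10 p of at least 3, -0.78, and the density value with at least 2, -0.0804.

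Of the 53 members, 3 had a lower H3K36me2 coverage in both lists at 3 h than in both lists without UV (5.66%), whereas 42.9% of all protein-coding genes did. In the other direction 1 member was higher (1.89%), against 6.37% of all genes. Most genes are far longer than the members. Among the 471 genes of at most 1 kb, 17% were lower and 8.70% higher, and of the 43 members of that length 3 were lower (6.98%) and 1 was higher (2.33%). In all 4 lists together the members' share was below both backgrounds in both directions. The median difference over the 53 members was -0.0707 percentage points, beside -1.65 over all genes. Over the 43 short members it was -1.25, beside 0 over the short genes. With single lists left out, 10 to 20 members were lower (18.9% to 37.7%), against 51.5% to 57.0% of all genes and 23.8% to 31.6% of the short genes. The higher members were then 6 to 9 (11.3% to 17%), against 11.9% to 13.8% and 13.8% to 19.3%. Whichever list was left out, the members stayed below all genes for lower calls and below the short genes for higher calls. For lower calls against the short genes and higher calls against all genes this did not hold with every list left out. With peaks of a −log10 p of at least 2 it held for lower calls against all genes alone, with 5 members lower (9.43%) and 4 higher (7.55%), against 26.3% and 6.53% of all genes and 8.49% and 5.94% of the short genes.

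The 3 lower genes were H2AC16, H2AC14 and H1-2. H2AC16, for an H2A (chr6:27865317-27865798), had 47.2% and 38.7% without UV and 4.48% and 24.2% at 3 h. H2AC14, also for an H2A (chr6:27814302-27814777), had 12.5% and 14.7%, then 8.31% and 0%, with 42.2% of its transcript mappable. H1-2, for a somatic linker histone (chr6:26055740-26056470), had 14.4% and 7.27%, then 5.75% and 6.07%. The difference of means was widest in H2AC16, at -28.6 percentage points, and narrowest in H1-2, at -4.94. H4C1, for H4 (chr6:26021649-26022050), was the gene that was higher, with 11.7% and 0% without UV and 13.5% and 19.6% at 3 h. No H3K36me2 peak reached the transcript of H2AC14, H1-2 or H4C1 in any list, so their values lie in the flanks. The H2AC16 transcript was covered to 83.4% in list 1 without UV and to 0% in the other lists. No test was made for single genes, since an exact permutation test of 2 lists against 2 cannot give a p below 0.33.

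CTD peaks covered a mean of 9.75% ± 1.22 of the stretches without UV, compared with 8.32% ± 1.44 at 3 h (SD, n = 3 each), a log2 ratio of -0.23 (p = 0.3, two-sided exact permutation test), and the density had a log2 ratio of -0.20 (p = 0.2, the same test). Both conditions overlapped. The coverage ratio was -0.13 with list 3 without UV left out, -0.11 without list 1 at 3 h and -0.36 without list 2 at 3 h. The sequence between had 9.85% ± 0.553 and 10.8% ± 1.39. Relative to it, the density in the stretches was lower at 3 h, with a log2 difference of -0.29 and every list at 3 h below every list without UV (p = 0.1, two-sided exact permutation test, the smallest that 3 lists against 3 allow). With a flank of 1 kb this difference was -0.18 and the lists no longer separated (exact p = 0.4). With a flank of 5 kb it was -0.24 (exact p = 0.1), and against the gaps inside the subclusters -0.23 (exact p = 0.7). For coverage the difference from the sequence between was -0.36 (p = 0.2, same exact test), and -0.19 with list 1 at 3 h left out. With only the 14 of 281 CTD peaks that had a −log10 p of at least 2, the log2 ratio of the density at 3 h was 0.42, of the opposite sign.

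Among the members, 2 were lower in all 3 CTD lists at 3 h than in all without UV (3.77%, against 2.26% of all protein-coding genes), and 5 were higher (9.43%, against 5.33%). Among genes of at most 1 kb, 3.61% were lower and 4.67% higher, and of the 43 members of that length 1 was lower (2.33%) and 3 were higher (6.98%). The counts are small, and the lower share of all 53 members lay above both backgrounds, whereas that of the 43 short members lay below that of the short genes. With a flank of 1 kb 4.65% of these 43 were lower, against 3.82% of the short genes. With single lists left out, 2 to 7 members were lower (3.77% to 13.2%, against 4.82% to 7.66% of all genes and 5.52% to 9.13% of the short genes) and 5 to 8 were higher (9.43% to 15.1%, against 8.69% to 15.4% and 6.58% to 9.77%). The median difference over the members was -2.04 percentage points, beside 0.321 over all genes. Over the 43 short members it was -1.54, beside 0 over the short genes.

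Of the 5 higher genes, H2AC11 and H2BC11 form 1 stretch of the second subcluster and share peaks. H2AC11, for an H2A (chr6:27133043-27133535), had 10.8%, 0% and 0% without UV and 31.8%, 21.8% and 31.7% at 3 h. H2BC11, for an H2B, has an extent of 6899 bp and had 10.8%, 1.23% and 5.57%, then 18.6%, 13.9% and 21.6%. The separation of the conditions was widest in H2AC11, at 24.8 percentage points between the means. H2BC10, an H2B gene of the first subcluster (chr6:26272931-26273412), had 13.6%, 4.13% and 0% without UV and 31.0%, 31.4% and 20.9% at 3 h. H1-5, for a somatic linker histone, had 7.13%, 0% and 6.07%, then 16.3%, 14.7% and 9.57%. H4C8, for H4, has an extent of 8030 bp and was low throughout, with 0% to 3.76% without UV and 4.29% to 7.41% at 3 h.

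The 2 lower genes lie in the third subcluster. H4C12, for H4 (chr6:27831174-27831560), had 18%, 37.2% and 14.9% without UV and 0% in all 3 lists at 3 h, with 14.7% of its transcript mappable. H2BC15, for an H2B, has an extent of 17165 bp and had 14%, 16.3% and 14.3%, then 9.52%, 10.5% and 11.7%. None of the 7 genes was among those that separated in H3K36me2, where H4C12 had 22.9% and 10.6% without UV and 14.1% and 17.2% at 3 h.

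Histone genes outside the window were set against the members. The other replication-dependent histone genes listed were 15 genes on chromosomes 1 and 12. H3K36me2 peaks covered 5.03% and 6.72% of them without UV and 1.49% and 2.14% at 3 h, less than the chromosome 6 stretches in 4 of 4 lists, by 1.74 ± 1.00 on the log2 scale (p = 0.13, two-sided exact sign-flip permutation test). Only 49.0% of their sequence is mappable, and over mappable bases the stretches were higher in 3 of 4 lists, with a log2 difference of 0.76 (exact p = 0.375). In list 2 without UV the order was then the opposite, with 10.3% in the stretches and 13.5% in the other genes. The CTD gave a log2 difference of 0.53 ± 0.86 (p = 0.25, same exact test), which was -0.48 over mappable bases (exact p = 0.25) and 0.26 without CTD list 3 without UV.

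The 12 replication-independent histone genes, such as H2AZ1 and H3-3A, which code for variants deposited throughout the cell cycle, independently of DNA synthesis, have a higher GC content (47.1%, against 42.7% in the stretches). H3K36me2 covered 8.59% and 7.24% of them without UV and 3.18% and 5.02% at 3 h, below the stretches in 4 of 4 lists, by 0.94 ± 0.59 on the log2 scale (p = 0.13, two-sided exact sign-flip permutation test). The CTD covered 27.8%, 18.4% and 12.4% of them without UV and 15.3%, 14.6% and 24.9% at 3 h. The CTD coverage of the stretches was lower in 6 of 6 lists, with a log2 difference of -1.02 ± 0.55 (p = 0.031, same exact test, the smallest that 6 lists allow). Without any single list this difference was -1.19 to -0.91.

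All other protein-coding genes had an H3K36me2 coverage of 14.3% and 14.2% without UV and of 11.9% and 12.1% at 3 h. The stretches were below them in 4 of 4 lists, with a log2 difference of -0.28 ± 0.13 (p = 0.13, two-sided exact sign-flip permutation test). In the CTD lists they were lower in 5 of 6, with -0.40 ± 0.31 (p = 0.0625, same exact test). The counts of genes whose conditions did not overlap are set against 42.9% lower and 6.37% higher of all genes in H3K36me2, and 2.26% and 5.33% in CTD. Among 14 factors of histone gene transcription and histone mRNA processing, such as NPAT and SLBP, 3 were lower and 1 was higher at 3 h in H3K36me2, and 0 were lower and 3 higher in CTD. Of the 15 other replication-dependent genes 4 were lower and 0 higher in H3K36me2, and 1 was lower and 0 higher in CTD. Of the 12 replication-independent genes 5 were lower and 1 higher in H3K36me2, and 0 were lower and 1 higher in CTD. Of the 16 other genes in the window 4 were lower and 0 higher in H3K36me2, and 1 was lower and 0 higher in CTD.

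The peaks at the histone genes were weak, and about as weak as those of the whole lists. The median fold enrichment in the stretches was 1.87 to 1.90 for H3K36me2 and 1.74 to 1.83 for CTD. In the whole lists it was 1.82 to 1.89 and 1.72 to 1.82. Of 157 H3K36me2 peaks with a centre in the stretches, 68 (43.3%) had a −log10 p of at least 2, beside 43.6% in the whole lists. At least 3 was reached by 13, or 5.26% to 11.6% per list, beside 8.37% to 9.56% in the whole lists. Of 281 CTD peaks, 14 (4.98%) reached 2, beside 7.27% in the whole lists, and 0 reached 3, beside 0.112% to 0.211%. The strongest H3K36me2 peak by fold enrichment in each list lay nearest H4C12 (2.45) and H3C6 (2.82) without UV and nearest H2BC15 (2.59) and H2BC17 (2.45) at 3 h. The strongest CTD peak of a list had a fold enrichment of 2.04 to 2.46 and lay nearest H3C7, H4C11, H4C11, H4C8, H2AC15 and H2BC14. In no 2 H3K36me2 lists was the strongest peak at the same gene.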

How the data were processed

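The authors trimmed the reads (Trim Galore 0.6.5), mapped them with BWA 0.7.17-r1188 to an hg38 genome lacking chromosome Y, dropped duplicates, blacklisted regions and alignments with a mapping quality under 30, pooled the single- and paired-end H3K36me2 reads at that point, and ran MACS2 2.2.7.1 in broad mode on each replicate, with 0.01 as the p-value cutoff. For each peak the deposited lists give a fold enrichment of the ChIP over its control (a ratio). They also give the −log10 p-value and −log10 q-value as the authors' peak caller wrote them. As listed, the lowest −log10 p of a list is 1.22 to 1.42, so that many peaks lie under the value of 2 that the stated cutoff stands for. It is reached by 204043 to 224811 of the 500000 peaks of an H3K36me2 list and by 29323 to 42078 of those of a CTD list. No column holds counts or depth.

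Peak centres and covered bases were counted per list in the stretches (Python 3.11.15, pandas 2.3.3, SciPy 1.17.1, pysam 0.24.0). Mappable bases were found by aligning 100-base tiles of hg38, taken every 5 bases, back to the genome (bwa 0.7.19) and keeping bases with at least 50% of tiles at a mapping quality of 30 or more. Comparisons used two-sided exact permutation tests over lists, on log2 ratios. Subclusters were compared in percentage points in place of a log2 ratio, because a list had no covered base in the second. Families, transcripts and motifs were described without a test. Scripts were tested on simulated data. The members, gene lists and tests were chosen with earlier results of these data known. Genes named were those with the highest or no coverage in each ChIP, and those whose conditions did not overlap. Alternatives changed the peak threshold, replicated peaks, flank, gene extent, sequence between and mappability, and left out single lists. The study describes the replicates of both ChIPs as independent experiments.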

Additional observations from a re-analysis of the deposited data

Results flagged for a closer look

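In the summed stretches of the second subcluster the 2 experiments moved in opposite directions between the conditions. The mean H3K36me2 coverage of its stretches at 3 h differed from that without UV by -2.21 percentage points (n = 2 lists each), with both lists at 3 h below both lists without UV. The mean CTD coverage differed by 5.09 percentage points (n = 3 lists each), with all 3 lists at 3 h above all 3 without UV. The difference between the experiments was not tested. The H3K36me2 values rest on at most 1 peak centre per list. H2AC11, H4C9 and H2BC12 had no H3K36me2 peak in any list. In CTD, the means were higher at 3 h at H2BC11 and H2AC11, which share 1 stretch, by 12.2 and 24.8 percentage points, whereas the differences were -0.379 at H4C9, -3.22 at H2BC12 and -6.90 at H2AC12.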

How the results depend on the processing

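Of 225 differences under other settings, 26 had the opposite sign. No comparison of 4 H3K36me2 lists and none of 3 CTD lists against 3 could pass 0.05 under any setting, so that their p-values say nothing about stability. Values are log2 differences. With replicated peaks, the H3K36me2 coverage ratio of 3 h to no UV was 0.0854. CTD coverage of the stretches against the sequence between was -0.87 (exact p = 0.031). That setting left 5 to 10 CTD peak centres per list in the stretches. With a −log10 p of at least 2, the H3K36me2 density change relative to the sequence between was -0.0804, the CTD density and coverage ratios of 3 h to no UV were 0.42 and 0.37, 5 members were lower and 4 higher in H3K36me2 (26.3% and 6.53% of all genes, 8.49% and 5.94% of those of at most 1 kb), and 0 were lower and 0 higher in CTD (1.61% and 2.51% of all genes, 0% and 0% of the short genes). With at least 3, the H3K36me2 coverage ratio of 3 h to no UV was -1.27 and its change relative to the sequence between -0.78. Both rest on 2 to 5 peak centres per list in the stretches. Without a flank, the H3K36me2 coverage ratio was 0.00509 and the CTD against H3K36me2 difference -0.51 (exact p = 0.124). With a flank of 1 kb, density against the sequence between was -0.0648 for H3K36me2 and 0.0871 for CTD, the CTD against H3K36me2 difference was -0.34, and 5 members were lower and 2 higher in H3K36me2 (40.4% and 6.21% of all genes, 15.3% and 7.86% of the short genes). On mappable bases, CTD coverage was -0.48 against the sequence between and -0.48 against the other replication-dependent genes. Against gaps inside the subclusters, the H3K36me2 coverage change was -0.15, its coverage difference -0.49, the CTD coverage difference 0.33 and the CTD against H3K36me2 difference 0.82. On mappable bases of those gaps, a setting chosen after seeing the data, the same values were -0.14, -0.49, 0.31 and 0.80. Overlapping peaks gave 0.0651 for CTD density against the sequence between. MANE transcripts, also chosen after seeing the data, gave 0.0626 for CTD coverage against it. For density, 2 settings chosen after seeing the data gave, on mappable bases, -0.19 for H3K36me2 and -0.29 for CTD (exact p = 0.031) against the sequence between, and against gaps inside the subclusters -0.75 and 0.34, with an H3K36me2 change of -0.18. The H3K36me2 coverage difference on mappable bases was 0.00265. Other values kept their sign but moved by over 1.5 times. With a flank of 1 kb, the H3K36me2 coverage ratio of 3 h to no UV was -0.0242, the CTD density ratio -0.11, the CTD density change relative to the sequence between -0.18 and CTD coverage against it -0.10. With 5 kb, the H3K36me2 ratios were -0.0557 (density) and -0.0338 (coverage), its density change 0.14, its density against the sequence between 0.46, the CTD coverage ratio -0.14 and CTD density against the sequence between -0.0495. Overlapping peaks gave -0.15, 0.0174 and 0.18 for the H3K36me2 density ratio, change and difference, and a −log10 p of at least 2 gave -0.0430 for its coverage ratio and 0.25 for its density difference. MANE transcripts gave -0.17 and 0.12 for the H3K36me2 coverage ratio and change and -0.14 for the CTD coverage ratio. Replicated peaks gave coverage changes of 0.45 for H3K36me2 and -0.83 for CTD. The cause of these differences was not tested.

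With single lists left out, the H3K36me2 ratios of 3 h to no UV were -0.17 to 0.0413 (coverage) and -0.178 to 0 (density). The H3K36me2 coverage change relative to the sequence between was 0.13 to 0.34. The CTD coverage ratio was -0.36 to -0.11 and its change -0.48 to -0.19. Against the sequence between, CTD coverage was -0.29 to -0.0972 and CTD density -0.0487 to 0.0527. CTD coverage against the other replication-dependent genes was 0.26 to 0.75, and CTD against H3K36me2 was -0.56 to -0.37. CTD coverage against replication-independent histone genes was -1.19 to -0.91, each with an exact p of 0.0625, the smallest that 5 lists allow. Members lower and higher were 10 to 20 and 6 to 9 in H3K36me2 and 2 to 7 and 5 to 8 in CTD.

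The values gave no sign of a pairing by replicate number, which does not show that same-numbered lists were prepared apart. Deviations of same-numbered lists correlated at 0.00147 for H3K36me2 and at -0.226, 0.094 and -0.368 for CTD. Lists of different numbers had -0.00147 for H3K36me2 and -0.266 to 0.395 for CTD. With 2 lists per condition the H3K36me2 values can differ only in sign. With the replicate block the 3 h to no UV ratios were -0.09 (density) and -0.07 (coverage) for H3K36me2 and -0.20 and -0.24 for CTD, and the changes relative to the sequence between were 0.09 and 0.24, and -0.29 and -0.36. No call was possible with or without the block, since 2 pairs allow no p below 0.5 and 3 pairs none below 0.25. CTD ratios could not be formed at a −log10 p of at least 2 or 3 where a list had no peak in the stretches, and mappable bases were not computed for all protein-coding genes. The lists carry no depth, so a gene without a peak may have enrichment below the calling threshold.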
